A study of Bos taurus with 64 samples.

Results

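Transcripts of the M. longissimus thoracis (LT), a muscle of the back, were compared between 8 cows stressed before slaughter and 8 that were spared most of that stress, all fed the lipid-rich control diet. These 16 arrays were chosen by their labels for muscle, slaughter condition and diet out of 64 arrays of the LT and the M. semitendinosus (ST), a muscle of the hind leg, from 32 Normand cows, cull animals bought from several farms. The cows were about 4.5 years old and received for 101 ± 3 days a ration of straw (30%) and concentrate (70%) with 40 g of lipids per kg of dry matter from extruded linseed and rapeseed. The stressed cows, labelled "Moderated stress", travelled alone and were then put for 30 minutes into a labyrinth on a farm they did not know, whereas the limited stress cows were transported with a companion and handled calmly. The other 16 cows received the same ration with vitamin E and plant extracts rich in polyphenols (EP diet) and appear below only for comparison. Both groups were transported. Isolation, the way to an unknown farm and the labyrinth with its noisy experimenters always went together, so the stress effect is that of their sum. Muscle was excised within 15 minutes of slaughter. All cows were slaughtered on weekly days spread over 16 weeks, and the slaughter day of a cow is not in the labels, so its part in the results was not tested.

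Before slaughter, fear and exertion raise the adrenal hormones, the catecholamines within moments and cortisol somewhat later. In skeletal muscle, catecholamines act through beta-adrenergic receptors and cyclic AMP on glycogen and on a first wave of transcription factors, the immediate early genes. Cortisol enters the fibre, and its receptor switches on genes that spare glucose, slow growth and favour protein breakdown.

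The probes of the Agilent array have 60 bases, and the first 30 bases of one probe are shown for the transcripts that carry the main differences and for 3 custom probe sets that no annotation used here names. All run 5′ to 3′ in lower case, and the positions are those of the array annotation on the genome build Btau_3.1. For the genes that were higher in stressed cows, the PDK4 stretch lies on the minus strand at chr4:13136696-13136725, that of CEBPD on the plus strand at chr14:18786077-18786106, that of SLC16A6 on the plus strand at chr19:63724552-63724581 and that of GADD45A on the minus strand at chr3:83342748-83342777. For the genes that were lower, DLL4 lies on the plus strand at chr10:36385522-36385551, and no position was used here for the MYOG probe. The CEBPD stretch is from the set with the smallest of its 3 differences (1.94). The custom sets are shown because readers can only recognise them by their bases.
PDK4: tccagaaatttctgattgtcctttgctttc
CEBPD: cagcgcccgggcccgcgcgagacaaggcgg
SLC16A6: gactttctggagatggacctggggaagacc
GADD45A: tgctttgttaaagtttaaatgtgcagccat
MYOG: ggcaggggctcctggggtgattaattttgt
DLL4: taagaatcagaagcactgacctttctacat
Target1414: ttcaaaccaaaagtctgattgcccaaaaca
Target1490: gctgtgctatctaacatggcaagtgccggc
Target1097: attatgcagtggagagtcaagaaaccagag

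On the 16 arrays between 71.4 and 80.6% of the spots were well above background and no spot was saturated. Levels are given below as the processed signal in percent of the 75th percentile of the spots of the same array, a scale that allows a gene to be compared between cows but not with another gene. Differences are log2 values, stressed minus limited stress, with the standard error (SE) of a limma fit of the 4 LT groups and 32 arrays, and n = 8 cows in each group throughout. For a transcript with several probes the adjusted p is that of its weakest probe. The LT arrays lay on 4 slides. Slide 6 held no stressed cow of this diet, and slides 5, 7 and 8 held both groups. In the LT fit, 30.8% of the tested probes differed between slides at an adjusted p under 0.1. The arrays of a group resembled each other closely, with a correlation of each array to the mean of the others of 0.9864 or more in all cases but that of stressed cow321, at 0.9756. Where leaving out cow321 moved the difference of a named transcript by more than 1.5 times, the value without it is given too. The samples were skeletal muscle by their labels, and the 6 tested fibre markers had a summed level from 30300 to 36400% of the 75th percentile.

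Differential expression of a transcript required an adjusted p under 0.1, in 1 direction, for 80% or more of its probes. In the LT of cows on the lipid-rich diet, 34 transcripts were higher and 13 were lower in stressed cows among the 4311 tested, which is 0.789% and 0.302% of them and 1.09% together. They stand for 17 named genes that rose, 9 named genes that fell, and 13 transcripts or probe sets without a gene name. When the arrays were scaled to their control features, which lie near background, 14 were higher and 2 lower, and with normexp background correction and quantile normalization 37 were higher and 7 lower, against 34 and 13. All 47 kept the same sign within slides 5, 7 and 8. With slide as a term of the fit 38 were higher and 21 lower, and 42 of the 47 kept their call. Of the transcripts named below, CCK (adjusted p = 0.12), OXTR (0.11), HES1 (0.12), LEAP2 (0.12) and TC329371 (0.10) lost it. In whole muscle, fewer cells of a type and less RNA per cell cannot be told apart. The separation of the groups was seldom complete. The signals of all 8 stressed cows lay above those of all 8 limited stress cows for 9 transcripts (0.209% of those tested) and below them for 1 (0.0232%), and all 10 were among the 47 differentially expressed transcripts.

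**Figure D1:**
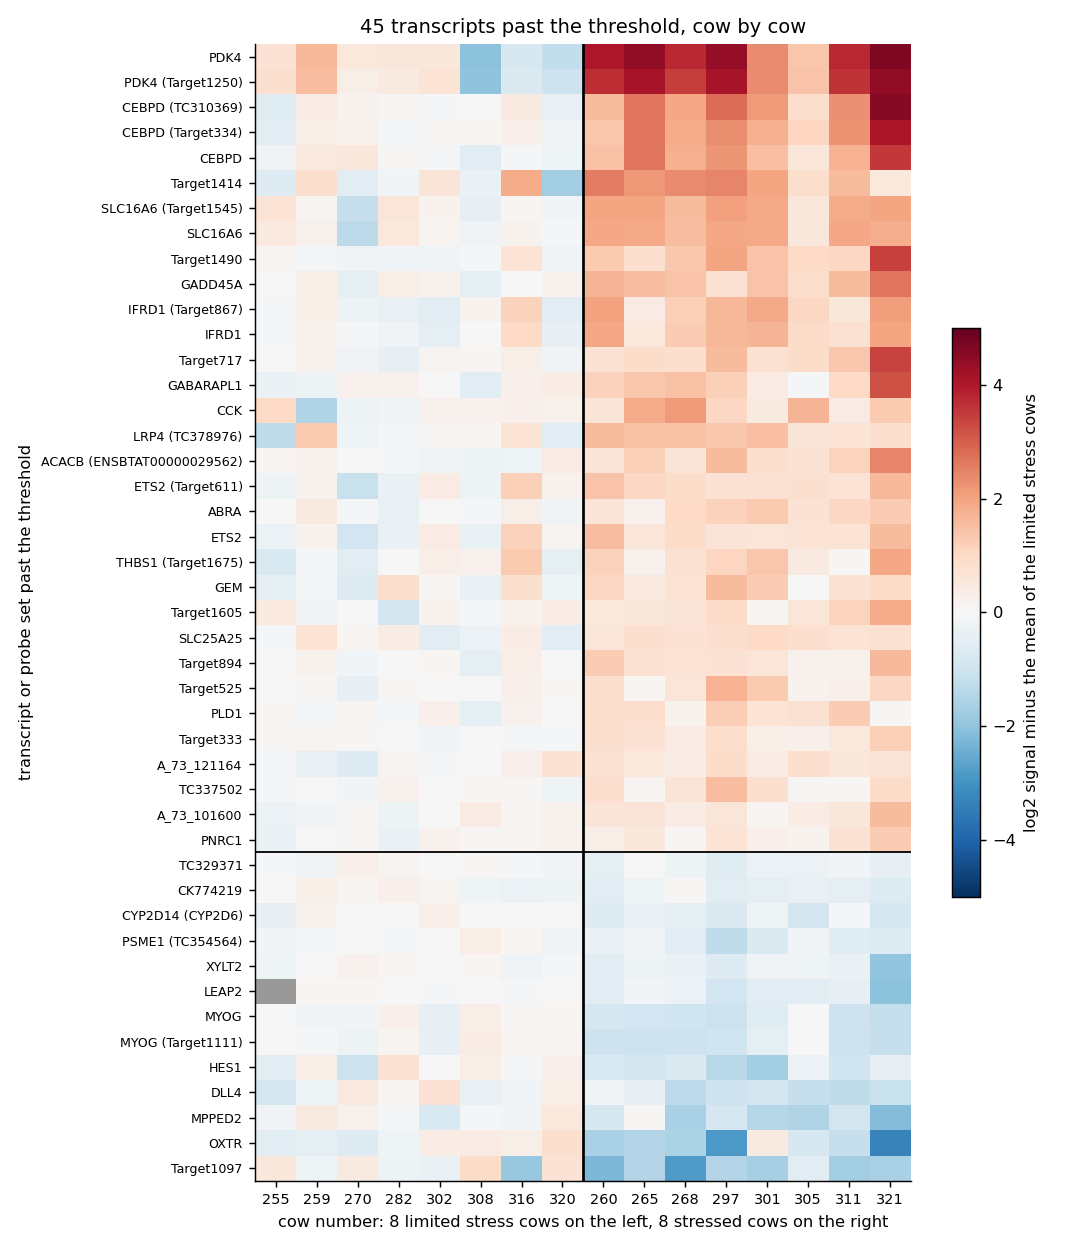
Log2 signal of 45 of the 47 differentially expressed transcripts (rows, ordered by difference) in the 16 cows (columns, limited stress on the left), minus the mean of the limited stress cows; a grey cell is a value left out. The columns of stressed cow321 and cow305 hold the strongest and the weakest colours of the stressed group for many of the transcripts that were higher.

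The largest difference was that of PDK4, the kinase that inactivates the pyruvate dehydrogenase complex and so holds glucose carbon back from oxidation. In limited stress cows its level had a lowest value of 7.36, a median of 44.8 and a highest value of 96.7% of the 75th percentile. In stressed cows these values were 79.0, 461 and 774%. Of the 8 stressed cows, 7 were above the highest limited stress cow, and only stressed cow305, at 79.0%, fell into the range of the other group. The difference was 3.60 ± 0.47 (SE, adjusted p = 2.93e-05), or 12.1-fold, and a custom set of 5 probes of PDK4 gave 3.39. Without cow321 it was 3.45 ± 0.48, and over the removal of each cow in turn it ranged from 3.31 to 3.92.

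PDK4 was the only differentially expressed member of the list of pyruvate and fatty acid fuel use, of which 18 genes were tested. The median of that list was 0.18, with 15 of 18 differences above 0, beside a median of −0.06 and 36.3% above 0 over all tested transcripts. The same background, with 0.789% higher and 0.302% lower past the threshold, holds for the other lists. GPAM, an enzyme of triglyceride synthesis, was next at 0.82 ± 0.25 (adjusted p = 0.15). The third was UCP3, a mitochondrial carrier of muscle, at 0.49 ± 0.28, and it fell to 0.18 without cow321. ACACB, the acetyl-CoA carboxylase of muscle mitochondria whose product restrains fatty acid entry, stood outside that list and was higher in stressed cows. Its level ran from 2.13 to 3.39% (median 2.44) in limited stress and from 3.94 to 14.0% (median 5.02) in stressed cows. The groups did not overlap, and the difference was 1.15 ± 0.20 (adjusted p = 0.0012). It was 0.76 and stayed past the threshold with normexp and quantile normalization. SLC25A25, a mitochondrial ATP-magnesium carrier, was higher by 0.79 ± 0.20 (adjusted p = 0.054 for the weaker of 2 probes), and it lost its call in 5 of the 16 fits that left out 1 cow.

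SLC16A6, a transporter of the monocarboxylate family, was also higher in stressed cows. Its level was 5.87, 16.2 and 20.8% (lowest, median, highest) in limited stress and 21.3, 54.2 and 56.1% in stressed cows. All stressed cows were above all limited stress cows, though cow305 cleared the highest limited stress cow only narrowly. The difference was 1.69 ± 0.30 (adjusted p = 0.0012), and 1.73 in a custom set of 5 probes. None of the 22 tested genes of glucose uptake, glycolysis and glycogen was differentially expressed, and their median of −0.07 was close to that of all transcripts. PFKFB3, which makes the activator of phosphofructokinase, had the largest positive value. Its level ranged from 304.3 to 1998% (median 755) in limited stress cows and from 1220 to 2560% (median 1653) in stressed cows, so that the groups overlapped, and the difference was 1.17 ± 0.39 (adjusted p = 0.23). The glucose transporter SLC2A3 was at −0.56 ± 0.19 (adjusted p = 0.24).

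CEBPD, a leucine zipper factor that cortisol and cytokines induce, was measured by 3 separate probe sets. In the set with the largest change its level was 3.096, 4.83 and 6.47% in limited stress cows and 8.71, 21.99 and 112% in stressed cows, without overlap. The difference was 2.36 ± 0.33 (adjusted p = 5.17e-05), or 5.12-fold, and the 2 other sets gave 2.18 and 1.94. Stressed cow321 had the highest value by far, and without it the difference was 2.04 ± 0.26 (adjusted p = 2.05e-05). Among 7 tested genes of the glucocorticoid response, CEBPD was the only one that passed the threshold, and 6 of 7 were above 0 with a median of 0.36. Of the others, CDKN1A, an inhibitor of the cell cycle, was at 1.18 ± 0.46 (adjusted p = 0.31) and MT2A, a metallothionein, at 0.78 ± 0.35 (adjusted p = 0.36). Both were highest in cow321. There MT2A was at 61.5%, against at most 9.27% in limited stress cows, and CDKN1A reached 2210% of the 75th percentile, where the other 7 stressed cows had at most 103% and the limited stress cows at most 63.5%. Without cow321 the differences were 0.55 for CDKN1A and 0.44 for MT2A.

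**Figure D2:**
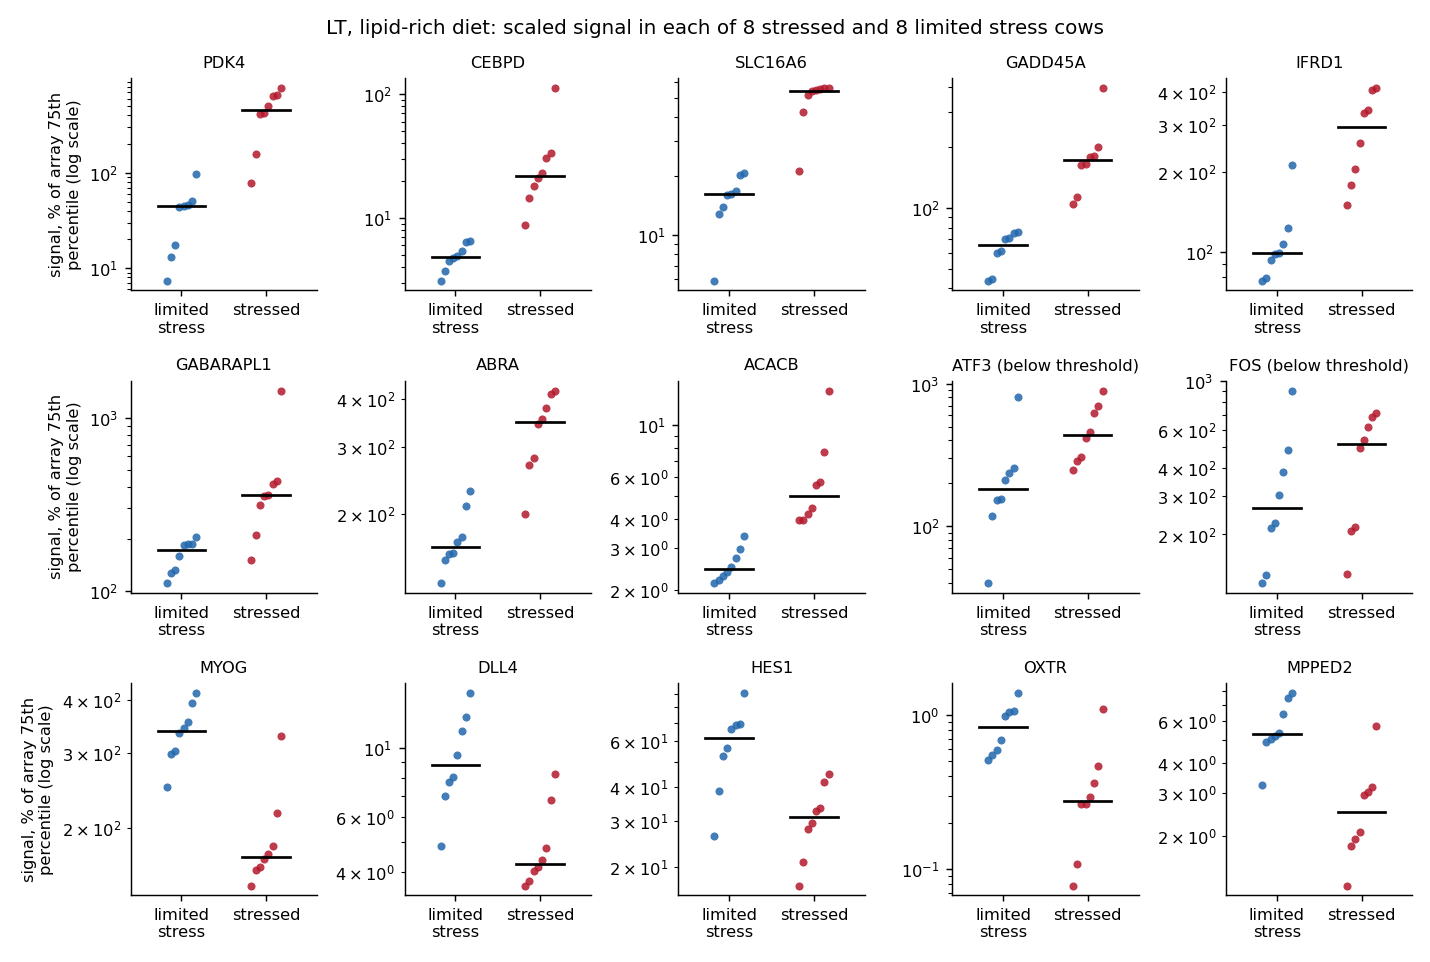
Scaled signal (percent of the 75th percentile of the array, log axis) of 15 genes in the LT of each limited stress cow (blue) and each stressed cow (red) on the lipid-rich diet; bars are group medians. CEBPD, SLC16A6, GADD45A and ACACB do not overlap between the groups, PDK4 overlaps by 1 stressed cow, and ATF3 and FOS overlap widely.

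In the list of adrenergic and cAMP signalling, the receptors ADRB1 and ADRB3 were at −0.41 ± 0.29 and −0.12 ± 0.19 (ADRB3 at −0.074 without cow321), and both were well above background on only part of the arrays.

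GADD45A, a stress sensor that slows the cell cycle and marks muscle wasting, was higher in every stressed cow than in any limited stress cow. Its level was 43.5, 65.6 and 76.2% in limited stress and 105, 173 and 394% in stressed cows. The difference was 1.502 ± 0.23 (adjusted p = 2.02e-04), or 2.83-fold, and 1.33 ± 0.21 without cow321. Of the 7 tested genes of growth arrest and p53 targets it was the only one that passed the threshold. GADD45B was at 0.49 ± 0.21 (adjusted p = 0.33), and the list median was −0.11.

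Among 12 immediate early genes, 3 were higher in stressed cows and none was lower, with a list median of 0.64. Over all tested transcripts 0.789% were higher and the median was −0.06. IFRD1, a transcriptional co-regulator, had levels of 77.7, 98.5 and 212% in limited stress and 151, 296 and 414% in stressed cows. Its difference was 1.35 ± 0.23 (adjusted p = 9.54e-04), with 5 of 8 stressed cows above all limited stress cows. ETS2, a transcription factor downstream of growth factor kinases, was higher by 0.90 ± 0.23 (adjusted p = 0.047). GEM, a small GTPase that damps calcium channels, was higher by 0.84 ± 0.21 (adjusted p = 0.042). ETS2 lost its call in 6 and GEM in 5 of the 16 fits that left out 1 cow, where their differences stayed between 0.77 and 1.07 and between 0.73 and 0.96.

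The better known early factors did not pass the threshold on this diet. ATF3, a repressor induced by many stresses, had levels of 39.8, 184 and 812% in limited stress and 249, 437 and 894% in stressed cows, and a difference of 1.31 ± 0.38 (adjusted p = 0.13). Limited stress cow316, at 812%, lay within the upper range of the stressed cows. FOS varied as widely in each group, from 120 to 905% (median 264.6) and from 132 to 718% (median 518), with a difference of 0.45 ± 0.46 (adjusted p = 0.71). EGR1 had its larger values in limited stress cows, 53.9 to 310% (median 106) against 26.7 to 136% (median 42.6), at −1.11 ± 0.49 (adjusted p = 0.36). FOSL1 was at 1.48 ± 0.45 (adjusted p = 0.18 for the weaker of 2 probes).

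MYOG encodes myogenin, the factor that drives the last step of muscle cell differentiation and that denervated fibres raise. Its level was 249, 338 and 415% in limited stress and 146, 171 and 328% in stressed cows. Of the stressed cows, 7 of 8 were below every limited stress cow, and cow305 was the exception at 328%. The difference was −0.84 ± 0.14 (adjusted p = 6.03e-04), a custom set of 5 probes gave −0.85, and over the removal of single cows it stayed between −0.96 and −0.79. MYOG was the only one of 11 tested myogenic regulators that passed the threshold, and 9 of the 11 lay below 0, with a median of −0.21. Most tested transcripts lay below 0 as well, with 36.3% above it. MYOD1, which acts before MYOG, was at −0.72 ± 0.26 (adjusted p = 0.26), with levels of 319 to 715% in limited stress and 93.6 to 487% in stressed cows. MYF6, the member of the family that mature fibres express most, had the opposite sign at 0.66 ± 0.19, and 2 of its 5 probes were past the threshold.

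The Notch pathway, in which a ligand on one cell releases a transcription factor in its neighbour, had 9 tested genes, of which 2 were lower and none was higher. Over all tested transcripts 0.302% were lower. The ligand DLL4, found mainly on the endothelium of growing vessels, had levels of 4.85, 8.81 and 15.1% in limited stress and 3.61, 4.26 and 8.28% in stressed cows. In 6 of the 8 stressed cows it was below all limited stress cows, and the difference was −0.92 ± 0.24 (adjusted p = 0.048). HES1, a repressor that Notch induces, had levels of 26.3, 61.4 and 90.6% in limited stress and 17.1, 31.0 and 44.9% in stressed cows. The groups overlapped, and at −0.89 ± 0.25 its adjusted p of 0.0997 was just under the threshold. DLL4 lost its call in 5 and HES1 in 12 of the 16 fits without 1 cow, with differences of −1.05 to −0.82 and of −1.05 to −0.78. The 2 genes with the largest values among the others pointed upwards. HES6, a member of the HES family that favours differentiation, was at 1.001 ± 0.32 (adjusted p = 0.18) and HEYL, another Notch target, at 0.53 ± 0.18 (adjusted p = 0.23). The median of the list was −0.24. The only tested endothelial marker, PECAM1, was at −0.09, and the other endothelial markers were not analysed here.

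In the remaining pathway lists, single members rose. ABRA, which binds actin and activates transcription in striated muscle, had levels of 132, 164 and 230% in limited stress and 201, 349 and 420% in stressed cows. Its difference of 0.92 ± 0.15 (adjusted p = 5.54e-04) was past the threshold under all 30 alternatives tried. Of the tested genes of actin and mechanosensing 10 of 10 lay above 0 (median 0.18), beside 36.3% over all tested transcripts. CSRP3, a sensor of stretch in the sarcomere, was next at 0.80 ± 0.34 (adjusted p = 0.33). GABARAPL1, a protein of the autophagosome membrane, had levels of 111, 172 and 204% in limited stress and 152, 357 and 1437% in stressed cows, and 7 of 8 stressed cows were above all limited stress cows. The difference was 1.21 ± 0.28 (adjusted p = 0.020) and fell to 0.93 ± 0.21 without cow321, which had the value of 1437%. The other 12 tested genes of protein breakdown, among them calpains, cathepsins and proteasome subunits, lay between −0.20 and 0.11.

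LRP4, the agrin receptor of the neuromuscular junction, was higher by 1.18 ± 0.28 (adjusted p = 0.026), with levels of 1.49 to 9.02% (median 3.56) in limited stress and 5.56 to 10.8% (median 9.48) in stressed cows. Of the 8 tested junction genes it was the only one past the threshold. The acetylcholine receptor subunits CHRND and CHRNE were at −1.01 ± 0.46 and 0.92 ± 0.37 (adjusted p = 0.36 and 0.31), and CHRND was at −0.56 ± 0.36 without cow321. THBS1, a matrix protein that restrains vessel growth, was higher by 0.88 in a custom set, with 4 of 5 probes past the threshold. Its catalogue probe was at 0.87 ± 0.25 (adjusted p = 0.10), and the set lost its call in 11 of the 16 fits without 1 cow. CCK, the gut and brain hormone cholecystokinin, was at 1.19 ± 0.31 (adjusted p = 0.055). It was well above background in 6 stressed cows and in 1 limited stress cow, and it lost its call in 4 of the 16 fits. With normexp and quantile normalization the difference shrank to 0.26 and kept its call (adjusted p = 0.021). Another 2 named genes that rose fall outside the rule for naming, namely PLD1 (0.73, adjusted p = 0.045), a phospholipase, and PNRC1 (0.51, adjusted p = 0.059), a nuclear receptor coactivator. The PLD1 probe was well above background in 8 stressed cows and in 6 limited stress cows.

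Apart from MYOG, DLL4 and HES1, 6 named genes were lower in stressed cows. The receptor of oxytocin, OXTR, had the largest change, with levels of 0.51 to 1.38% (median 0.83) in limited stress and 0.078 to 1.09% (median 0.28) in stressed cows. The difference was −1.55 ± 0.40 (adjusted p = 0.055). The probe was well above background in 8 limited stress cows and in 3 stressed cows, so the size of the difference is uncertain, and with normexp and quantile normalization it was −0.28 (adjusted p = 0.16). MPPED2, a metallophosphoesterase, was at 3.24, 5.28 and 7.84% in limited stress and at 1.24, 2.51 and 5.70% in stressed cows, and 7 of 8 stressed cows were below all others. Its difference was −1.15 ± 0.31 (adjusted p = 0.078), and −0.67 with normexp and quantile normalization. LEAP2, a liver and gut peptide that opposes ghrelin, was lower by −0.70 ± 0.19 (adjusted p = 0.087) and was the only transcript for which all stressed cows lay below all limited stress cows, of which 1 value had been left out. XYLT2, a xylosyltransferase that starts proteoglycan chains, was at −0.56 ± 0.15 (adjusted p = 0.089). Without cow321 its difference shrank to −0.36 ± 0.08 and kept its call (adjusted p = 0.013). PSME1, a subunit of the proteasome activator that interferon induces, was at −0.55 ± 0.14 (adjusted p = 0.035), and CYP2D14, a cytochrome P450, at −0.53 ± 0.12 (adjusted p = 0.013). OXTR lost its call in 5, MPPED2 in 10, LEAP2 in 10, XYLT2 in 8 and PSME1 in 1 (that without limited stress cow308, at −0.51) of the 16 fits that left out 1 cow. With normexp and quantile normalization LEAP2 was at −0.22 and PSME1 at −0.20, and neither passed the threshold.

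Of the 13 transcripts without a gene name, 10 were higher and 3 lower. The custom set Target1414 was higher by 1.81 ± 0.42, with all 5 probes past the threshold and levels of 15.1 to 182% (median 43.1) in limited stress and 72.8 to 296% (median 210) in stressed cows. Target1490 was higher by 1.54 ± 0.24 and Target717 by 1.31 ± 0.25, all 5 probes of each past the threshold and the groups without overlap. In both, cow321 had the highest level, and without it the differences were 1.27 and 1.01. Target1097 was the largest decrease of all, at −1.70 ± 0.36 over 5 probes, with levels of 3.06 to 21.2% (median 12.5) in limited stress and 1.60 to 7.59% (median 3.60) in stressed cows. The adjusted p of its weakest probe, 0.0997, was just under the threshold, and 2 of 8 stressed cows were below all limited stress cows. A transcript described as a lysosomal glucocerebrosidase precursor (TC329371) was at −0.31 ± 0.08 (adjusted p = 0.056) and the cDNA CK774219 at −0.40 ± 0.11 (adjusted p = 0.082). They lost their call in 6 and 10 of the 16 fits without 1 cow.

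The heat shock, antioxidant, ribosome and fibre type lists had no differentially expressed member. Of 17 tested heat shock proteins and chaperones, 15 lay above 0, beside 36.3% over all tested transcripts, and the median was 0.14. The largest values were those of DNAJA1 (0.52 ± 0.23, adjusted p = 0.36) and HSPH1 (0.51 ± 0.30, adjusted p = 0.47). Of 13 antioxidant genes, MT2A and GPX3 (0.50 ± 0.26, adjusted p = 0.41) had the largest values, and the list median was −0.04. Without cow321 GPX3 was at 0.26 ± 0.21. The 3 tested genes of ribosome biogenesis lay below 0, with IMP3 at −0.47 ± 0.17 and NOL6 at −0.10 ± 0.13. The slow fibre genes had a median of −0.04 over 7 tested genes, with MYL3 at 0.27 ± 0.42 and MYOZ2 at 0.41 ± 0.32, and the fast fibre genes −0.06 over 6, with ACTN3 at −0.22 ± 0.11 and PVALB at 0.19 ± 0.67 (−0.03 without cow321). In the hypoxia and vessel list, PGF, a placental growth factor, was at 0.50 ± 0.16 (adjusted p = 0.22). Of 10 tested cytokine and innate immunity genes only LEAP2 passed the threshold, 2 of 10 lay above 0 (36.3% over all tested transcripts) and the median was −0.33. The chemokine receptor CXCR6 was at −0.84 ± 0.40 (adjusted p = 0.38) and IL16 at −0.67 ± 0.22 (adjusted p = 0.23). SPOCK2, a matrix proteoglycan, was at 1.14 ± 0.48 (adjusted p = 0.33) and TUBB6, a tubulin, at 0.42 ± 0.18. CAPN1 and CTSB, proteases of meat ageing, were at −0.20 ± 0.15 and −0.16 ± 0.08, and at −0.12 and −0.098 without cow321.

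**Figure D3:**
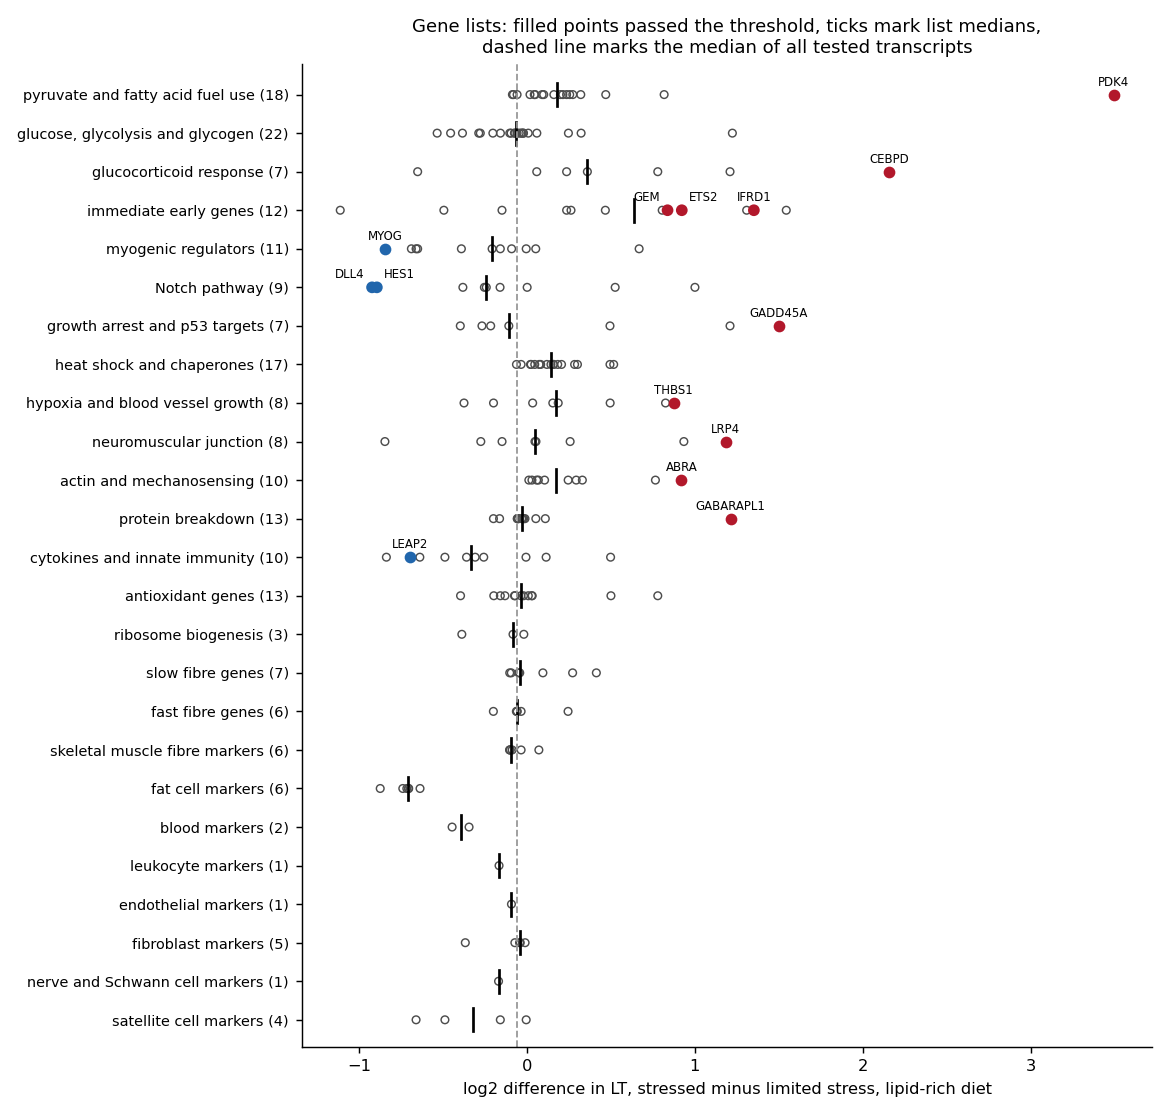
Log2 differences (stressed minus limited stress, LT, lipid-rich diet) of the tested genes of 17 pathway and 8 marker lists, with the number of tested genes in parentheses. Filled points passed the threshold (red higher, blue lower), and the 6 fat cell markers lie together left of the dashed line at −0.06.

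The markers of other cell types did not pass the threshold, but those of fat cells moved together. All 6 tested markers (ADIPOQ, PLIN1, FABP4, CIDEA, SCD and FASN, of 10 in the list) had differences between −0.91 and −0.64. Their summed level was 234, 551 and 760% of the 75th percentile in limited stress and 177, 233 and 615% in stressed cows, and 7 of 8 stressed cows were below the limited stress median. The difference of the log2 sums was −0.72 (exact permutation test, two-sided, p = 0.056), with −0.16 on slide 5, −1.17 on slide 7 and −0.56 on slide 8. The permutation test was not planned and takes no account of slide, and markers of 1 cell type are not independent of each other. With the log2 sum of the fat markers as a term in the fit, 31 transcripts were higher and 9 lower, and 36 of the 47 kept their call. Of the named genes CCK, ETS2, OXTR, LEAP2 and XYLT2 lost it, while PDK4, CEBPD, SLC16A6, GADD45A, MYOG, DLL4, HES1 and MPPED2 kept it. The 4 tested satellite cell markers had a median of −0.32 and a summed level of 80.1 to 123% in stressed against 95.4 to 137% in limited stress cows. The 2 blood markers summed to 2.64 to 5.11% against 3.30 to 8.57%, and the 5 fibroblast markers to 141 to 455% against 160 to 407%. Leukocyte, endothelial and nerve markers had 1 tested gene each. The part of these cells in the differences was not tested beyond that fit.

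The stressed cows differed more among themselves than the limited stress cows did. Across transcripts the median SD was 0.34 for the stressed and 0.24 for the limited stress group, and the SD was larger in the stressed group for 72.5% of the tested transcripts. The SE of the LT fit pools these groups with those of the EP diet, where the median SD was 0.27 (stressed) and 0.25 (limited stress). It can therefore be too small for transcripts that varied most among the stressed cows on the lipid-rich diet. Without cow321 the median of the stressed group on the lipid-rich diet was 0.29. That cow had the highest level of the stressed group in 22 of the 34 transcripts that were higher and the lowest in 7 of the 13 that were lower. Stressed cow305 had the lowest level of its group in 14 of the 34 and the highest in 5 of the 13. Removing cow321 left 29 transcripts higher and 7 lower, and removing cow305 gave 49 and 23, of which 46 were among the original 47. Without cow321 the named genes CCK (1.17), ETS2 (0.81), THBS1 (0.73), OXTR (−1.29), MPPED2 (−1.004), DLL4 (−0.89) and LEAP2 (−0.50) no longer passed the threshold. Removing limited stress cow308 or cow270 left 34 transcripts in either case. No other cow moved the total by more than 1.5 times.

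The same comparison in the LT of cows on the EP diet rested on other animals and asked whether these changes came with the vitamin E and polyphenol supplement as well. There 36 transcripts were higher and 14 lower (1.16% of those tested), against 39 and 8 without scaling between arrays and 8 and 7 with scaling to the control features, and 24 were shared in direction with the lipid-rich diet, that is 51.1% of the list of the lipid-rich diet and 48.0% of the list of the EP diet. All 34 transcripts that were higher and 11 of the 13 that were lower had the same sign on the EP diet, where 66.4% of all tested transcripts had. PDK4 (3.18 ± 0.47), CEBPD (1.74 ± 0.33), IFRD1 (1.46 ± 0.23), ABRA (0.92 ± 0.15) and MYOG (−1.17 ± 0.14) passed the threshold on both diets. GADD45A was at 0.82 ± 0.23 (adjusted p = 0.098) on the EP diet and SLC16A6 at 1.08 ± 0.30 (adjusted p = 0.088). Both passed the threshold as well, but only narrowly. The custom set of SLC16A6 was at 1.08 ± 0.31 there and did not pass it (adjusted p = 0.21 for its weakest probe).

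**Figure D4:**
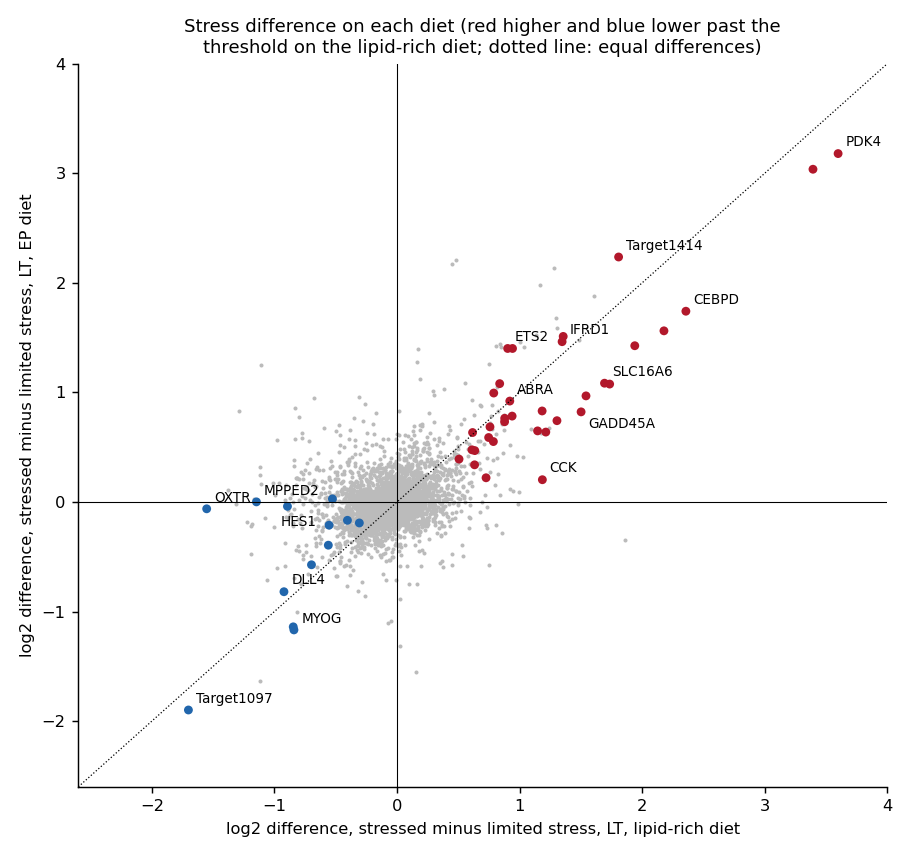
Log2 difference between stressed and limited stress cows on the lipid-rich diet (x axis) and on the EP diet (y axis) for the 4311 tested transcripts of the LT; coloured points passed the threshold on the lipid-rich diet. ABRA and IFRD1 lie near the dotted line of equal differences, and OXTR, MPPED2 and HES1 lie near 0 on the y axis. The probe A_73_120319, at −3.30 on the EP diet, lies outside the plot.

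The test of the difference between the diets found 0 transcripts with limma at an adjusted p of 0.1. An unadjusted p under 0.05 was found for 2.64% of the 10441 probes, which is less than chance alone gives. Single genes had unlike values on the diets, without a call in this test. Genes picked because they passed the threshold on 1 diet tend to have smaller values on the other. The intervals below are not adjusted for that choice. Of the genes that fell on the lipid-rich diet, OXTR was at −0.06, MPPED2 at 0.00, HES1 at −0.04 and CYP2D14 at 0.03 on the EP diet. The differences between the diets were −1.49 (95% interval −2.65 to −0.33) for OXTR, −1.15 (−2.04 to −0.25) for MPPED2, −0.85 (−1.58 to −0.13) for HES1 and −0.56 (−0.89 to −0.22) for CYP2D14, none past the adjusted threshold. Of the genes that rose on the lipid-rich diet, CCK was at 0.20 ± 0.31 on the EP diet. The difference between the diets was 0.98 (0.096 to 1.87) for CCK and 0.68 (0.0054 to 1.355) for GADD45A, neither past the adjusted threshold. The fat cell markers had a log2 sum difference of 0.16 on the EP diet. Other genes had their larger values on the EP diet. There FOS was at 2.17 ± 0.46, ATF3 at 1.59 ± 0.38, PFKFB3 at 1.98 ± 0.39 and HES6 at 1.46 ± 0.32, all past the threshold. The early genes FOSL1 (1.48 on both diets) and IFRD1 had values close to each other. The intervals of the difference between the diets were −3.05 to −0.38 for FOS and −3.79 to −0.94 for EGR1, which was at 1.25 ± 0.49 on the EP diet. For ATF3 the interval was −1.39 to 0.83 and for PFKFB3 −1.94 to 0.32, so that equal effects lie within them. Among the 5 transcripts with the lowest p of this test were CYP2D14 and EGR1. The others were HSPA1L, a heat shock protein gene (0.03 on the lipid-rich and −0.89 on the EP diet), AIFM2, an oxidoreductase that guards against lipid peroxidation (−0.28 and 0.23), and the unnamed probe A_73_120319 (−0.27 and −3.30). The scaled log2 signal of that probe ran from −10.91 to −5.535 in stressed EP cows, with several at −9.562 or below. In limited stress EP cows it ran from −6.742 to −4.533, and stressed cow260 on the lipid-rich diet was at −9.1. Its value of −3.30 is therefore a mean over cows that lay far apart. Without cow321 that probe was at −0.42 on the lipid-rich diet.

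The ST came from the same cows of the lipid-rich diet, so it is no independent sample of animals. There stressed and limited stress cows shared only slide 3, so that stress and slide can hardly be told apart there. With that limit, 33 transcripts were higher and 40 lower in the ST (1.73% of 4230 tested), and 19 in all passed the threshold when slide was a term of the fit. That split depended on the scaling, with 52 higher and 11 lower when the arrays were not scaled to each other. After quantile normalization of normexp values 39 were higher and 8 lower, and scaling to the control features left 10 and 0. Of the 46 LT transcripts tested in the ST, 25 were differentially expressed there in the same direction, or 54.3% of those and 34.2% of the ST list, and 18 passed the threshold in the LT on both diets and in the ST. PDK4 (4.14 ± 0.47), CEBPD (2.16 ± 0.34), SLC16A6 (1.84 ± 0.33), GADD45A (1.57 ± 0.23) and MYOG (−0.73 ± 0.15) were among them. DLL4 was at −0.14 ± 0.23, HES1 at −0.08 ± 0.31 and LEAP2 at 0.13 ± 0.20 in the ST, and the summed fat markers at −0.54. The difference between the muscles was tested with limma in a fit that took the 2 muscles of a cow as independent. With the cow as a replicate block the test found 0 transcripts. Without that block it found 0 as well, and 2.90% of the 10254 probes had an unadjusted p under 0.05. The 5 transcripts with the lowest p were the matrix genes THBS2 (0.68 in the LT, −0.70 in the ST) and OMD (−0.13, −0.94), the integrin ITGAV (0.26, −0.30), LOC532114, described as similar to a serotonin receptor subunit (−0.10, −0.88), and a transcript described as similar to ATE1 (ENSBTAT00000004132, at 0.51 and −0.30). LOC532114 was at −0.03 in the LT without cow321.

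**Figure D5:**
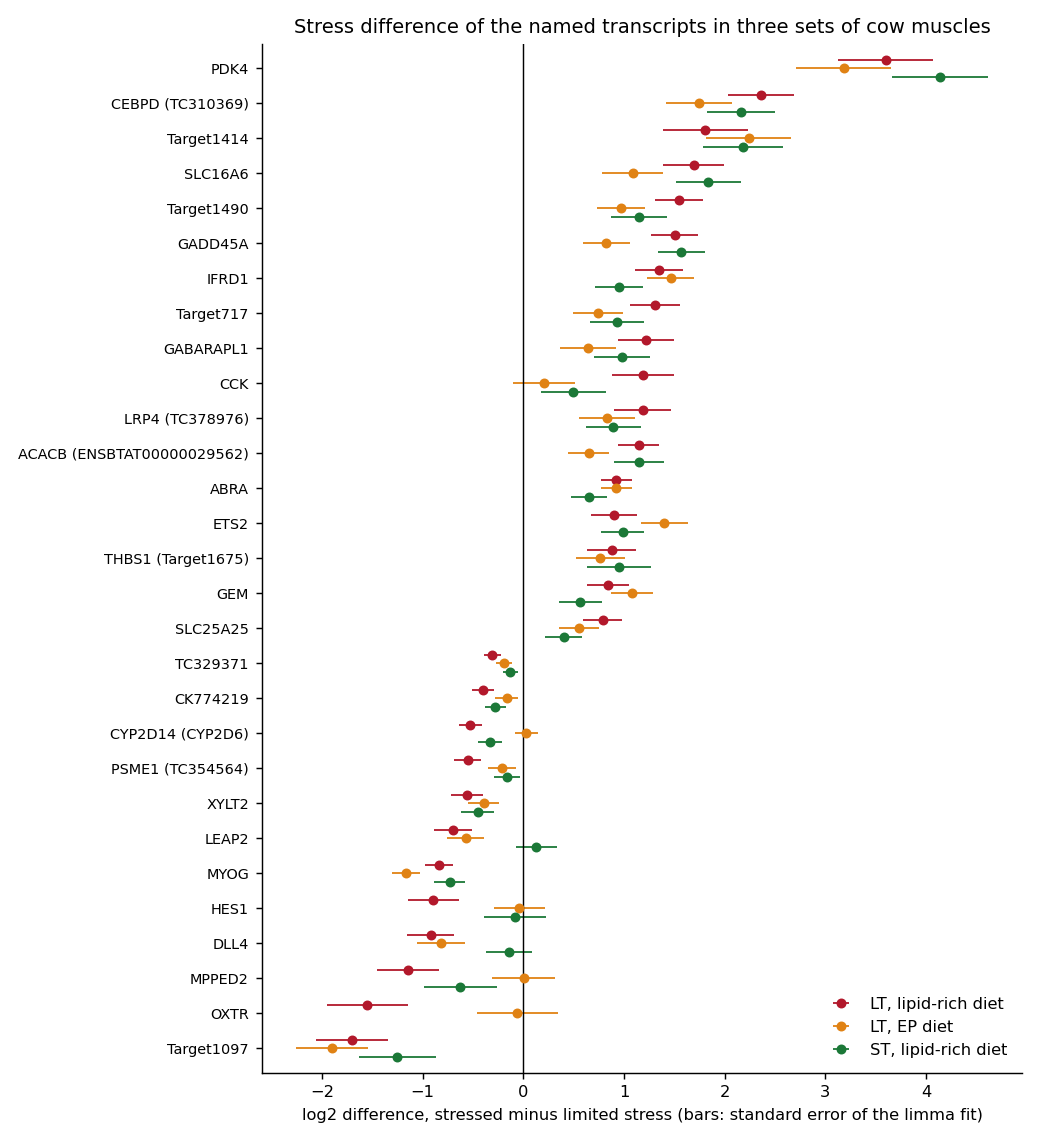
Log2 difference between stressed and limited stress cows, with the standard error of the fit as bars, for the named transcripts in the LT on the lipid-rich diet (red), the LT on the EP diet (orange) and the ST on the lipid-rich diet (green). PDK4 lies above 3 in all of them, whereas HES1 is near 0 outside the red series; OXTR was not tested in the ST.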

How the data were processed

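Total RNA of 1 muscle sample per cow was labelled with cyanine 3 and hybridised to single-colour Agilent arrays of 13950 features. The authors read the arrays with Agilent Feature Extraction 10.1.1.1, and per the file headers the deposited intensity values (processed signals) were background-subtracted and detrended, without scaling between arrays or a log transformation; the deposited series table held the same intensity values. The other deposited columns used were the scanner's marks for background, saturation and outliers, which are codes and no measurements. The submitters' processing notes name limma; the study's methods also describe scaling to control probes and a slaughter period term, and neither is in the values or labels used here.

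Groups came from the labels. Log2 signals minus the log2 of the 75th percentile of the non-control spots of each array were used, spots marked as outliers were left out, and a probe was kept if 11 or more of the 32 LT arrays showed it well above background (10441 probes, 4311 transcripts). The methods' scaling to control features was an alternative, because these lay near background. A limma 3.58.1 fit (R 4.3.3) of the 4 LT groups gave both stress effects and their difference by diet, and a fit of all 64 arrays in 8 groups gave the ST effect and the difference by muscle. Tests were two-sided and adjusted by Benjamini-Hochberg over all probes. The log2 difference and SE of a transcript are means over its probes. The script was tested on simulated data. The LT and the ST come from the same cows, and the correlation within a cow was 0.407; the fit with the cow as a block is given with the alternatives.

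Names came from the files, updated through RefSeq accessions (1857 matched), from descriptions in the files (CEBPD, HES6, LRP4, ACACB and PSME1), or for custom sets from 25 or more bases shared with the probes of 1 named gene. Some genes that met the rule are not reported here. CEBPD's custom set was named by its qPCR primers. The rule named up to 15 genes and 3 unnamed sets in each direction, the genes the study discusses, differentially expressed list members with the 2 largest others of each pathway list, and the 5 lowest p of each interaction test. The transcripts and gene lists were chosen with earlier results of these data known. The alternatives were 3 other scalings or background corrections, other filters, slide or scan day as a block, fewer arrays, stricter call rules, and each cow left out. The term for fat cell markers, the permutation test of their sum and the fit without cow321 and cow255 were chosen after seeing the data. The number of arrays limits the precision, and p-values measure the spread between these cows.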

Additional observations from a re-analysis of the deposited data

Results flagged for a closer look

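In each group of 8 cows the highest or lowest level of a named transcript was compared with its nearest neighbour by Dixon's ratio (gap over the range of log2 levels), and 19 of 149 comparisons (12.8%) passed the 95% value, where chance gives about 1 in 20. No cause was tested. Stressed cow321 stood apart from the other stressed cows in 9 of them, high in CDKN1A (0.810), Target717 (0.685), THBS2 (0.645), Target1490 (0.564) and GABARAPL1 (0.534) and low in XYLT2 (0.749), LEAP2 (0.574), CHRND (0.565) and MYOD1 (0.557). Limited stress cow316 was high in Target1490 (0.625), A_73_120319 (0.545) and IFRD1 (0.541) and low in LOC532114 (0.583) and Target1097 (0.561). Limited stress cow270 was low in SLC16A6 (0.620) and high in CTSB (0.572), and limited stress cow255 was low in CYP2D14 (0.577). Among the stressed cows, cow305 was low in SLC16A6 (0.707) and cow260 low in A_73_120319 (0.674).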

How the results depend on the processing

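Of the differentially expressed transcripts named by the rule, none changed its sign under the 30 alternatives run for it (29 for OXTR). Against 47, the number of differentially expressed transcripts on the lipid-rich diet was 16 with scaling to the control features, 27 with only the 16 arrays and 15 with only the 16 arrays and slide as a block; the members of the gene lists numbered 5, 9 and 6 in these fits, against 15. It ranged from 34 without limited stress cow270 to 72 without stressed cow305 when each cow was left out. All other alternatives were within 1.5 times, from 34 at an adjusted p under 0.05 to 69 in the 64 arrays with the cow as a replicate block, where 44 of the 47 kept their call. The replicate block found 0 transcripts for the difference between the muscles, with or without slide, and both interaction tests gave 0 under every alternative run. On the EP diet scaling to the control features gave 15 against 50. In the ST the count of 73 became 10 with that scaling, 47 with normexp and quantile normalization, 19 with slide and 26 with scan day as a block. The share of probes with a slide effect fell from 30.8 to 2.75% with scaling to the control features. The fat cell marker difference stayed between −0.882 and −0.623 without single cows. The cause of these changes was not tested. A fit of only the 16 arrays has fewer degrees of freedom, and it also takes its estimate of the spread from these arrays alone.

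PDK4, CEBPD, SLC16A6, GADD45A, IFRD1, ACACB, ABRA and Target1490 kept their call under all 30 alternatives, and MYOG lost it only with scaling to the control features. Signs turned only for transcripts without a call. These were A_73_120319 at 0.05003 with normexp and quantile normalization, SPOCK2 at −0.27 without the filter on dim probes, and HSPA1L at −0.0505 and LOC532114 at 0.00475 without cow321 and cow255. Without single cows, PVALB ran from −0.34 to 0.42, HSPA1L from −0.0915 to 0.14 and A_73_120319 from −0.42 to 0.27. Dim probes, near background, limit what can be said of CCK, OXTR, PLD1, FOSL1, ADRB1 and ADRB3. LEAP2 (0.34 to 1.53% over both groups) and PSME1 (0.58 to 1.75%) were dim too, though well above background in every cow.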
